A study of Homo sapiens with 9 samples.

Results

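The 10 genes described here are the E2F transcription factors E2F1, E2F2, E2F3, E2F7 and E2F8, the G1 cyclins CCNE1, CCNE2, CCND1 and CCND3, and the phosphatase CDC25A. They are the rows of the deposited table whose Ensembl identifiers carry these symbols, 10 of 61093 genes. All 10 had a normalized count of at least 10 in at least 3 libraries and so were among the 17492 genes tested. The genes were chosen by their pathway and by their normalized counts in these same 9 libraries, which had already been seen, so their pattern over libraries is given as a description.

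RNA sequencing was made from cells labelled HepG2, a human liver cancer line, in 3 groups of 3 libraries. The control carries no treatment in its label. The second group received SKF-96365, which the series text names as the inhibitor, and the third received 2-APB, named as the agonist; in its sample names the third group appears as ABP in the title and as TRPV2, a cation channel, in the description. The labels used here give no dose, exposure time or vehicle. They do not say whether the libraries of a group came from separate cultures, so p-values measure only the spread between these samples.

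E2F factors control the entry of cells into DNA replication. In resting cells the retinoblastoma protein RB1 and its relatives hold E2F proteins in check; D-type cyclins with CDK4 or CDK6, and then E-type cyclins with CDK2, phosphorylate RB1 and release them. E2F1, E2F2 and E2F3 then activate genes of nucleotide supply and DNA replication, and E2F7 and E2F8 are themselves E2F targets that repress the same genes. CCNE1, CCNE2 and CDC25A belong to the targets, and CDC25A removes the inhibitory phosphates from CDK2, which closes the loop.

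The start regions of several of these genes carry E2F recognition letters, which are shown as a description. Whether they bear on the levels in these libraries was not tested. RefSeq windows of GRCh38.p14, from 250 bases before to 50 after a gene's start, were in the table used for 7 of the 10 genes (E2F1, E2F2, E2F3, E2F7, CCNE1, CCND3 and CDC25A). Each 100-base stretch below is written 5′ to 3′ along the gene and ends at the base before the start, except that of E2F7, which covers the bases from -200 to -101. Capitals mark E2F matches.
E2F1, chr20:33686386-33686485 on the minus strand: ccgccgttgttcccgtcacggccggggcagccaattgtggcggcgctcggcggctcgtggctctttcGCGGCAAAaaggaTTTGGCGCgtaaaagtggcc
E2F2, chr1:23531234-23531333 on the minus strand: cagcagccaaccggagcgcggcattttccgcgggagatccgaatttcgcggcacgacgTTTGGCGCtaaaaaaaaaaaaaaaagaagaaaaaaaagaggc
E2F3, chr6:20401779-20401878 on the plus strand: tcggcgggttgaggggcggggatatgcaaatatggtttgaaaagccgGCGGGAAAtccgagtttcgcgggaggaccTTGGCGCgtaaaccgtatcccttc
CDC25A, chr3:48188418-48188517 on the minus strand: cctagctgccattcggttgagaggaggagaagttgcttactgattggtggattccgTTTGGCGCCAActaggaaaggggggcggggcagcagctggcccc
E2F7, chr12:77065670-77065769 on the minus strand: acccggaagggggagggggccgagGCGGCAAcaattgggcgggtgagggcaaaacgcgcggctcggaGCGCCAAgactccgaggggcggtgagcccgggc

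The 8-letter forms searched were TTTGGCGC, TTTCCCGC, TTTCGCGC and TTTGCCGC on both strands. They were found in the windows of 4 of the 7 genes, namely E2F1, E2F2, E2F3 and CDC25A, and in those of 3.99% of the 27305 genes in the table (3.31% of its 35116 windows). E2F1 held them at 2 places, from -33 to -26 and from -20 to -13. The match of E2F2 ran from -42 to -35 and that of CDC25A from -44 to -37. In E2F3 the match from -53 to -46 lay in the more upstream of its 2 windows. The 7-letter forms, which are these without their first letter and so overlap them, were also in the window of E2F7, so that 5 of 7 genes held them, against 15.3% of genes and 13.0% of windows. The windows of CCNE1 and CCND3 held neither form. A match describes letters in a window and was not measured as binding.

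The reads counted to genes summed to 14786059 to 19026545 in the 8 libraries whose whole reads were taken as recovered from the normalized counts. Reads that were not counted are not in these sums. Libraries did not always lie with their label. Over all tested genes, control 3 differed from SKF-96365 2 by a mean absolute log2 difference of 0.25 and from SKF-96365 3 by 0.27, but from control 1 by 0.57 and from control 2 by 0.59. SKF-96365 1 differed from SKF-96365 2 by 0.48 and from 2-APB 3 by 0.28. No gene of the 17492 passed limma with a Benjamini-Hochberg adjusted p under 0.05 in any comparison or in the F test over the 3 groups. Defining hepatocyte markers were at or near 0, which goes against the liver label: 7 of 10 were under 10 in every library, among them AFP, APOA1, TTR and HNF4A. ALB, the serum albumin gene, reached 11.8 at most, and SERPINA1 ran from 207 to 523. The summed hepatocyte list ran from 219 to 555 in control, 332 to 427 under SKF-96365 and 269.7 to 350.0 under 2-APB. Of the fibroblast and mesenchymal list 9 of 10 markers reached 10, with sums of 30582 to 38064, 30093 to 42445 and 30988 to 46933 in the same order. VIM alone made up 86.3% to 93.8% of the sum in each library, and COL1A2 (at most 25.6), LUM (at most 12.5) and DCN (at most 4.17) were near 0. Of the blood and endothelial list 7 of 10 stayed under 10, with sums of at most 72.0 in control, 37.6 under SKF-96365 and 26.6 under 2-APB. The part of these markers in the results was not tested.

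E2F1, the activator best known for driving replication genes, had normalized counts of 742, 511 and 217 in control 1, 2 and 3. They were 494, 256 and 245 in SKF-96365 1, 2 and 3, and 429.7, 425 and 777 in 2-APB 1, 2 and 3. Control 3, SKF-96365 2 and SKF-96365 3 were the 3 lowest, 2-APB 3 and control 1 were the highest, and the 3 labelled groups overlapped. Means were 490.1 ± 263 for the control group, 332 ± 141 for SKF-96365 and 544 ± 202 for 2-APB (SD, n = 3 each). The log2 fold change of SKF-96365 against control was -0.47 (SE 0.44, limma adjusted p = 0.793), on log2 of the normalized count plus 1. It was 0.26 for 2-APB against control and 0.73 for 2-APB against SKF-96365 (95% interval -0.24 to 1.70). In these bulk libraries fewer dividing cells and less RNA per cell cannot be told apart.

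E2F2, another activator, ran from 143 in control 3 to 506 in 2-APB 3. Its counts were 491, 319 and 143 in the control libraries, 294, 149 and 151 with SKF-96365 and 359.6, 322 and 506 with 2-APB. Every 2-APB library was above every SKF-96365 library, and control libraries lay on both sides. The log2 fold change of 2-APB against SKF-96365 was 1.05 (95% interval 0.12 to 1.97), which did not pass the limma adjustment over all genes (adjusted p = 0.684). Against control it was -0.59 for SKF-96365 and 0.46 for 2-APB.

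E2F3, an activator that is also expressed outside S phase, had the narrowest span of the 3 activators, 1.78 times. Counts were 1673, 1387 and 1033 in control, 1533, 939.5 and 948 under SKF-96365 and 1192, 1269 and 1626 under 2-APB. SKF-96365 2, SKF-96365 3 and control 3 were again the lowest, but the fourth lowest library was only 1.15 times the third lowest. The log2 fold changes were -0.27 for SKF-96365 against control, 0.012 for 2-APB against control and 0.28 for 2-APB against SKF-96365, with a standard error of 0.23 for the first. The pseudogenes E2F3P1 and E2F3P2 were under 10 in every library.

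E2F7 and E2F8, the repressors of the family, did not share a pattern. E2F7 had counts of 1089, 785 and 1025 in control, 957, 1031 and 1055 under SKF-96365 and 717, 827 and 1076 under 2-APB. The lowest library was 2-APB 1 and the highest control 1, a span of 1.52 times, and the 3 libraries lowest for the other genes lay in the upper part of its range. E2F8 had 939, 924 and 291 in control, 596, 329 and 345 under SKF-96365 and 552, 538 and 819 under 2-APB. Control 1 and 2 were its highest libraries and control 3 its lowest, so the control group alone spanned the whole range. The log2 fold change of SKF-96365 against control was 0.083 for E2F7 (95% interval -0.30 to 0.46) and -0.63 for E2F8 (-1.56 to 0.30).

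**Figure D1:**
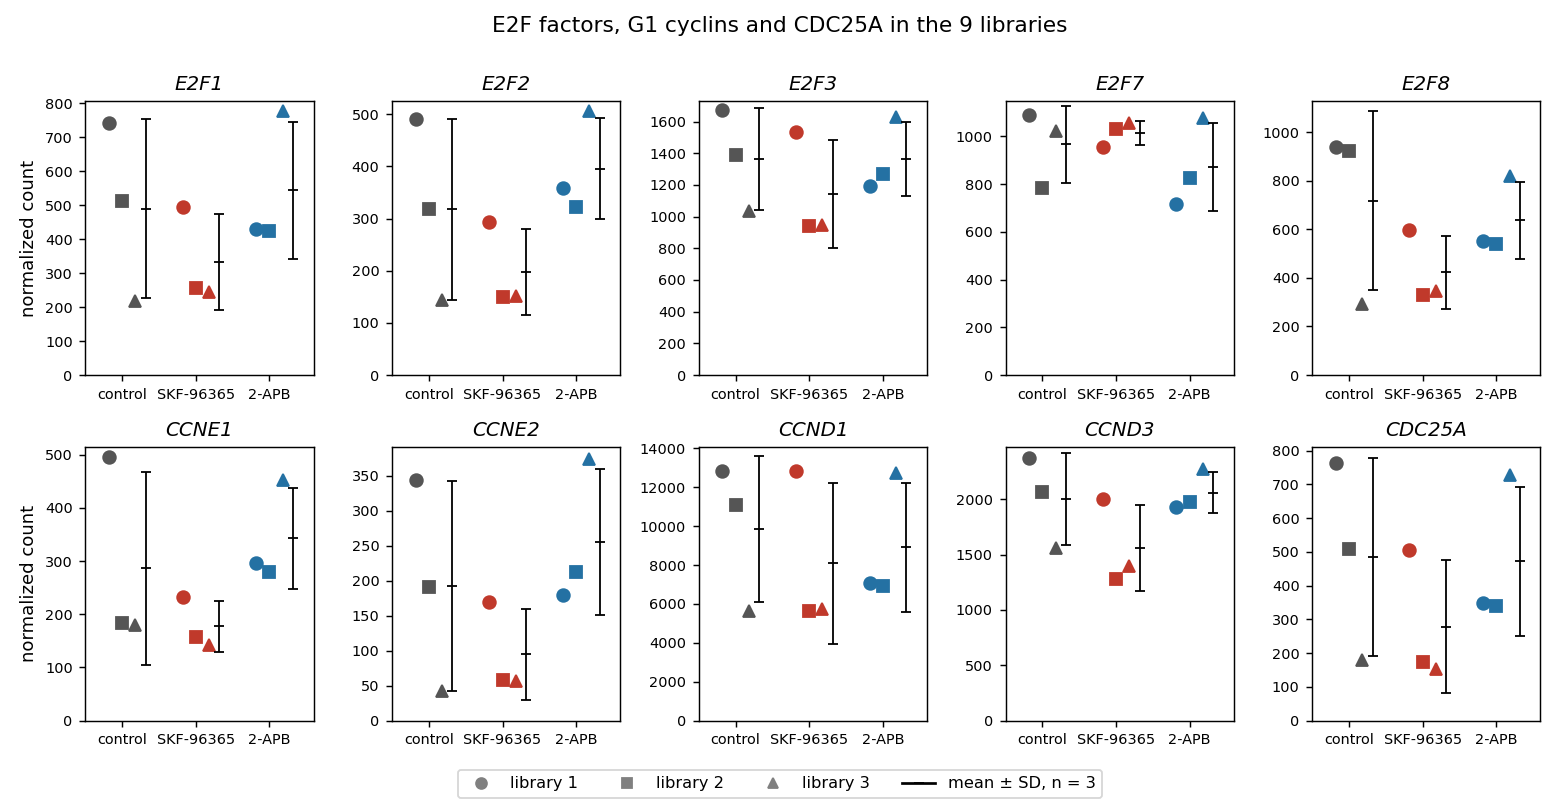
Normalized counts (vertical axes, linear, from 0) of the 10 genes in each library, by labelled group, with the group mean ± SD (n = 3) beside the points. In 9 of the 10 panels, all but E2F7, the triangle of control and the square and triangle of SKF-96365 are the 3 lowest points.

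The E cyclins bind CDK2 at the G1 to S transition. CCNE1 had counts of 496, 183 and 181 in control, 232, 156 and 143 under SKF-96365 and 297, 279 and 452 under 2-APB. Control 1 stood far above control 2 and 3, which differed little, and every 2-APB library was above every SKF-96365 library. The log2 fold change of 2-APB against SKF-96365 was 0.95 (95% interval 0.11 to 1.78, limma adjusted p = 0.684). Against control it was -0.55 for SKF-96365 and 0.40 for 2-APB. CCNE2 had counts of 344, 191 and 42.8 in control, 169, 57.6 and 56.5 under SKF-96365 and 179.8, 213 and 375 under 2-APB. Its highest library was 8.76 times its lowest, the widest span of the 10 genes and wider on the log2 scale than that of 99.4% of the 12381 genes with a mean of at least 50. The lowest value, in control 3, rested on 41 reads, with an exact 95% Poisson interval of 29.4 to 55.6 that covers counting error only. The fold change of 2-APB against SKF-96365 was 1.55 on the log2 scale (95% interval 0.032 to 3.08, limma adjusted p = 0.684).

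The pair of E cyclins did not keep a fixed ratio. CCNE1 over CCNE2 was lowest in control 2, at 0.957, and highest in control 3, at 4.22. In SKF-96365 2 and 3 it was 2.71 and 2.53, and in the other 5 libraries between 1.21 and 1.65. CCNE2 shares 1629 exon bases (37.0% of its exon length, GENCODE 29) with INTS8 on the opposite strand. The strand setting of the counting is not given in the sources used here, so reads of both genes cannot be told apart there. INTS8 itself ran from 1038 to 1285, a span of 1.24 times.

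The D cyclins activate CDK4 and CDK6 in response to growth signals. CCND1 was the most abundant of the 10 genes, also per kilobase of exon, with counts of 12841, 11090.0 and 5644 in control, 12856, 5641 and 5749.7 under SKF-96365 and 7083, 6917 and 12746 under 2-APB. It lay at 2 separate levels: 4 libraries (control 1, control 2, SKF-96365 1 and 2-APB 3) were between 11090.0 and 12856 and the other 5 between 5641 and 7083, with all 3 groups on both levels. Within-group differences made up 93.6% of its variance on the log2 scale, the largest share of the 10 genes, and the fold change of 2-APB against SKF-96365 was 0.19 (95% interval -0.67 to 1.06, limma adjusted p = 0.892). CCND1 shares 497 exon bases (10.3%) with LTO1, which ran from 350.4 to 480.0. CCND3 had counts of 2376, 2066 and 1559 in control, 2003, 1281 and 1399.7 under SKF-96365 and 1932, 1976 and 2272 under 2-APB. Its log2 fold change was -0.36 for SKF-96365 against control (95% interval -0.80 to 0.068) and 0.42 for 2-APB against SKF-96365 (-0.0078 to 0.86). Its span of 1.86 times was narrower than that of CCND1, at 2.28 times, and CCND1 over CCND3 ran from 3.50 in 2-APB 2 to 6.42 in SKF-96365 1. CCND2, the remaining D cyclin, was at most 20.9 in any library and was not tested.

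CDC25A, the phosphatase that activates CDK2, had counts of 764, 509 and 179 in control, 505, 174 and 154 under SKF-96365 and 349, 341 and 728 under 2-APB. The 3 lowest libraries, SKF-96365 3, SKF-96365 2 and control 3, were separated from the next by 1.90 times, and all 3 groups overlapped. Means were 484 ± 293 for the control group, 277 ± 197 for SKF-96365 and 472 ± 221 for 2-APB (SD, n = 3 each). The log2 fold change was -0.79 for SKF-96365 against control (95% interval -2.06 to 0.48) and 0.10 for 2-APB against control (-1.17 to 1.37). CDC25B, its relative that acts mainly at mitosis, lay the other way round: 1848, 2461 and 2882 in control, 1867, 2936 and 2856 under SKF-96365 and 2106, 2084 and 1868 under 2-APB. CDC25A over CDC25B was 0.0538 in SKF-96365 3 and 0.413 in control 1, a span of 7.68 times.

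Between SKF-96365 and control, 9 of the 10 genes had a fold change below 0, E2F7 being the exception, with a median of -0.51 on the log2 scale. Over all tested genes 50.5% were below 0 and the median was -0.0043. None of the 10 passed limma with adjustment over all genes, where 0% of genes were called, and none reached an unadjusted p under 0.05, against 4.0% of all genes (699 genes). edgeR on 8 libraries called 0 genes and DESeq2 called 2, neither of them among the 10. No gene of the 10 had every SKF-96365 library below every control library, against 2.94% of tested genes, and none had them all above, against 3.26%. The median moved from -0.12 without control 1 to -0.88 without control 3. Between these fits CDC25A moved from -0.34 to -1.39, CCNE2 from -0.14 to -1.63, E2F1 from -0.084 to -0.97, E2F2 from -0.19 to -1.07, E2F8 from -0.35 to -1.19 and CCNE1 from -0.068 to -0.79. Without control 3 limma called 173 genes (111 higher, 62 lower, or 0.644% and 0.360% of those tested), none of the 10; the smallest adjusted p among them was then 0.0548, for E2F8 at -1.19.

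Between 2-APB and control the same control libraries were used, and the 10 genes lay on both sides of 0. E2F7, E2F8 and CCND1 were below 0, at -0.15, -0.018 and -0.12, and E2F8 was above 0 (0.022 to 0.032) under upper-quartile, equal-total and quantile scaling. The largest positive value was that of CCNE2, 0.78 with a standard error of 0.69. The median was 0.081, against -0.0016 over all genes, of which 50.3% were below 0. None of the 10 passed limma (adjusted p = 0.9995 for each), 0% of genes were called, and none of the 10 reached an unadjusted p under 0.05, against 2.80% of genes (489 genes). edgeR and DESeq2 on 8 libraries also called 0 genes. None of the 10 had groups that did not overlap, against 3.61% of genes higher and 3.97% lower with 2-APB. Leaving out 1 library turned the median to -0.14 (without control 3) or raised it to 0.41 (without control 1).

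Between 2-APB and SKF-96365, 9 of the 10 genes had a fold change above 0, with a median of 0.67 against 0.0073 over all genes, of which 49.0% were below 0, and E2F7 was at -0.24. CCND1 was below 0 in edgeR (-0.057) and DESeq2 (-0.054) on 8 libraries, where SKF-96365 3 was left out. The SKF-96365 values of CCND1 were then those of SKF-96365 1 (12856) and SKF-96365 2 (5641) alone. For E2F2, CCNE1 and CCNE2 every 2-APB library was above every SKF-96365 library. That is 3 of 10 genes, against 8.21% of all tested genes. The same 3 genes had unadjusted p-values of 0.0306, 0.0299 and 0.0461 in limma, against 7.30% of genes under 0.05 (1277 genes). None passed the adjustment (adjusted p = 0.684 for each), and 0% of genes were called by limma; edgeR on 8 libraries called 0 and DESeq2 1, which was none of the 10. The interval for CCND1 included changes from -0.67 to 1.06 and that for CDC25A from -0.38 to 2.16, so a difference of 1 log2 unit between the compounds in either gene was not resolved. The median was 0.43 without 2-APB 3 and 0.97 without SKF-96365 1.

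**Figure D2:**
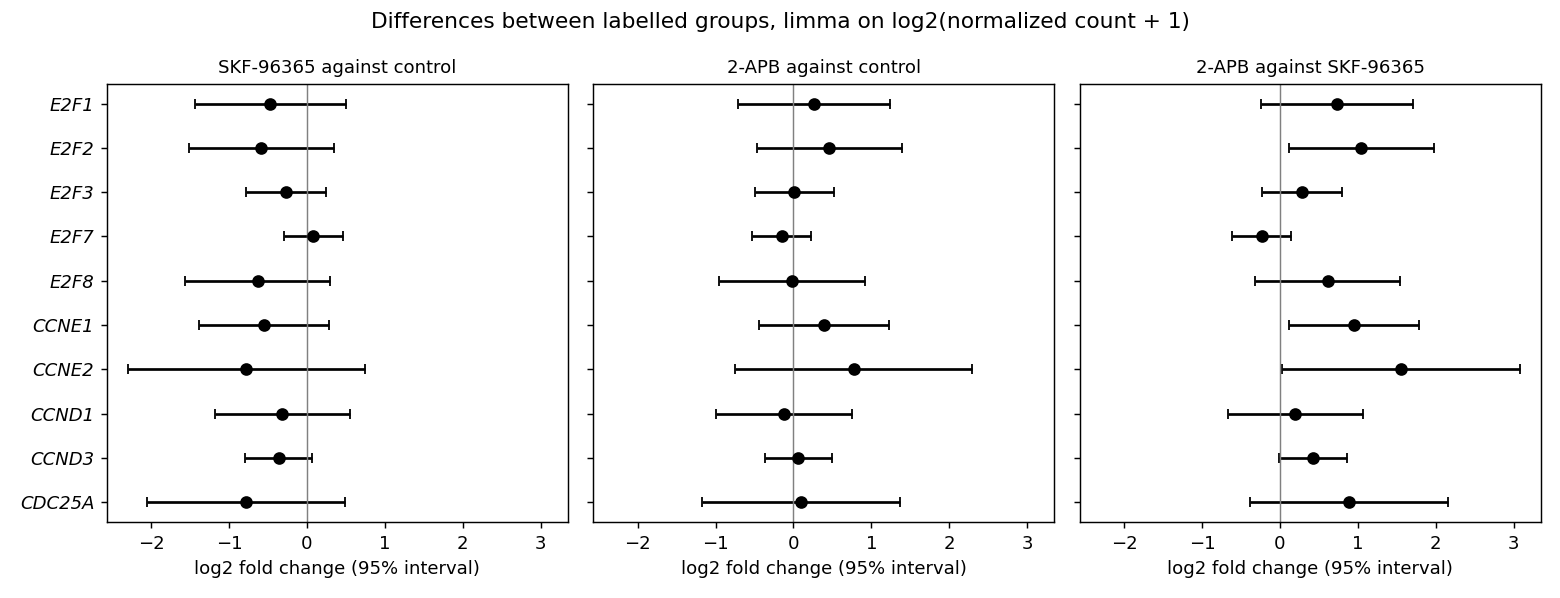
Log2 fold changes from limma (horizontal axes, points) with 95% intervals (bars) for the 10 genes in the 3 comparisons, all 9 libraries fitted together. Intervals cross 0 for all 10 genes in the left and middle panels, and lie above 0 for E2F2, CCNE1 and CCNE2 in the right panel, without adjustment for the number of genes.

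Leaving out control 3 and SKF-96365 1 changed the calls. They were not the only libraries nearer to another label: over all tested genes, control 1 differed from 2-APB 3 by 0.31 and from control 2 by 0.38, and 2-APB 3 from SKF-96365 1 by 0.28 and from 2-APB 1 by 0.39. SKF-96365 against control then gave 4784 called genes (2252 higher, 2532 lower) with 8 of the 10 genes lower, against 14.9% of genes lower and 13.2% higher. E2F7 and CCNE1 were the ones not called. The log2 fold changes ranged from -0.69 for E2F3 to -2.15 for CCNE2 among those called. In 2-APB against SKF-96365, 7 of the 10 were called higher, against 6.61% of genes higher and 6.68% lower, and in 2-APB against control no gene was called. With 2-APB 3 left out too, 3 of the 10 were called lower in 2-APB against control, E2F8 (-0.77, limma adjusted p = 0.00679), CCND1 (-0.77, 0.00444) and CDC25A (-0.85, 0.0262), against 6.25% of genes lower and 4.40% higher. These libraries were left out because of where their values lay, and the resulting p-values are given as values that support nothing.

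Most of the 10 genes shared their lowest and highest libraries. Control 3, SKF-96365 2 and SKF-96365 3 were the 3 lowest libraries for 9 of the 10 genes, and for 17.6% of all tested genes. No gene of the 10 had those libraries highest, against 16.4% of all. Control 1 and 2-APB 3 were the 2 highest libraries for 8 of the 10, and for 7.62% of all tested genes. After each gene was centred on its mean over the 9 libraries, the median of the 10 genes was 0.81 in control 1, 0.26 in control 2 and -0.74 in control 3 on the log2 scale. It was 0.19, -0.67 and -0.71 in SKF-96365 1, 2 and 3, and 0.037, 0.023 and 0.74 in 2-APB 1, 2 and 3.

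How sharply the 3 lowest libraries were set apart differed by gene. The fourth lowest library was 2.94 times the third lowest for CCNE2, 1.95 times for E2F2, 1.90 times for CDC25A, 1.66 times for E2F1 and 1.56 times for E2F8. For CCND3, CCND1 and E2F3 the gap was 1.24, 1.20 and 1.15 times, and for CCNE1 it was 1.01 times. Over the 10 genes some libraries lay closer to a library of another label than to those of their own. The mean absolute log2 difference was 0.16 between control 3 and SKF-96365 2 and 0.077 between control 1 and 2-APB 3, but 1.43 between control 1 and control 3 and 0.91 between SKF-96365 1 and SKF-96365 2. 2-APB 1 and 2 differed by 0.094. SKF-96365 2 and 3 differed by 0.068, against a mean of 0.24 and a median of 0.13 over all tested genes. Those include genes with far lower counts than the 10 genes.

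**Figure D3:**
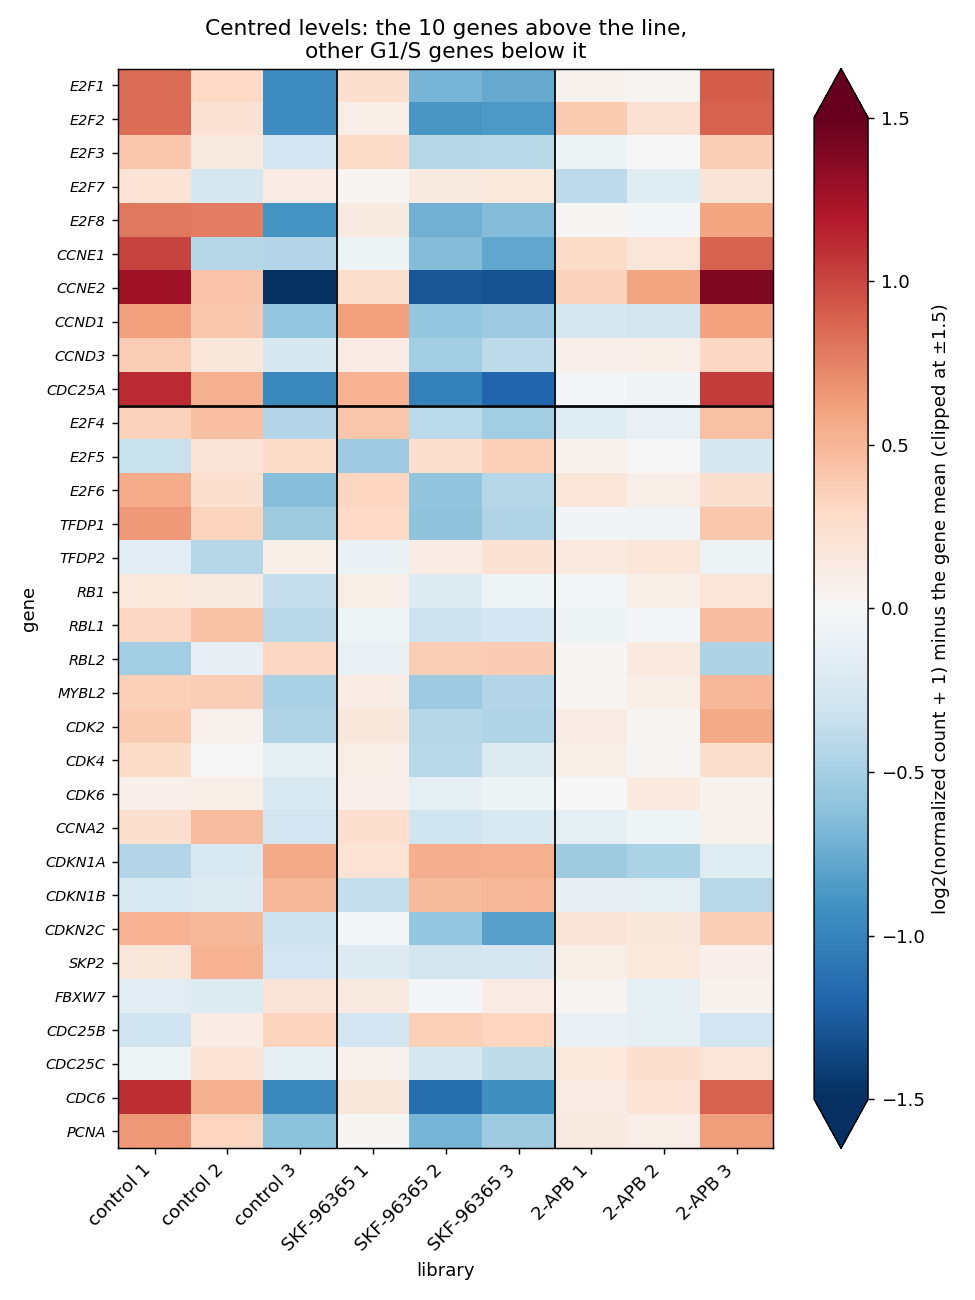
Centred levels of the 10 genes (above the line) and of other genes of the G1 to S pathway (below it) in the 9 libraries, as log2 of the normalized count plus 1 minus the gene's mean, with colours clipped at 1.5. Control 3, SKF-96365 2 and SKF-96365 3 are blue in every row above the line but E2F7. Below the line they are red for CDKN1A, CDKN1B, RBL2, CDC25B, E2F5 and, faintly, TFDP2.

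The log2 range over the 9 libraries exceeded 1 in 7 of the 10 genes: CCNE2 (3.10), CDC25A (2.31), E2F1 (1.84), E2F2 (1.82), CCNE1 (1.79), E2F8 (1.69) and CCND1 (1.19). CCND3 (0.89), E2F3 (0.83) and E2F7 (0.60) stayed below it. The median range of the 12381 genes with a mean of at least 50 was 0.66. The share of the variance that lay within the labelled groups was 59.0% (CCNE1) to 93.6% (CCND1), with a median of 76.3% over those genes.

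Per kilobase of exon, levels could be compared between genes only roughly. The length used was the union of all annotated exons, not that of the transcripts expressed here. Reads of INTS8 and LTO1 may be included in the values of CCNE2 and CCND1, whose exons they overlap. Of the 5 E2F factors among the 10 genes, E2F3 was highest and E2F2 lowest in all 9 libraries, at means of 249.6 and 55.7 normalized counts per kilobase. The order of E2F1 (mean 182), E2F7 (151) and E2F8 (143) turned with the library. E2F1 was above E2F7 in 6 libraries and below it in control 3, SKF-96365 2 and SKF-96365 3, where it was 86.7 against 163 in control 3. E2F8 was above E2F1 in control 2 alone, and above E2F7 in 4 libraries. E2F4, a factor known mainly as a repressor that shuttles with the pocket proteins, was above E2F3 in all 9 libraries, with a mean of 374. CCND1 stood at a mean of 1853 per kilobase, against 323 for CCND3, 105 for CCNE1 and 41.2 for CCNE2, in this order in all 9 libraries. CDC25A, with a mean of 99.9, was below CDC25B (538) in all 9 libraries. It was below CDC25C (117) in 6 libraries and above it in control 1, SKF-96365 1 and 2-APB 3, from 37.3 against 88.9 in SKF-96365 3 to 186 against 110.3 in control 1. As a ratio of normalized counts, E2F1 over E2F7 was 0.212 for control 3, 0.248 for SKF-96365 2 and 0.232 for SKF-96365 3, against 0.514 to 0.722 in the other 6.

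The partners of the E2F factors and the pocket proteins gave 14 tested genes, none of which passed limma in any comparison or reached an unadjusted p under 0.05 against 4.0%, 2.80% and 7.30% of all genes. The same 3 libraries were lowest for 9 of the 14, against 17.6% of all tested genes. Among the 9 were E2F4, E2F6, the dimer partner TFDP1, RB1, RBL1 and MYBL2. The 3 libraries were highest for 2 of the 14, E2F5 and RBL2, against 16.4% of all tested genes. TFDP1 was 1907 to 4314 in control, 1807 to 3377 under SKF-96365 and 2642 to 3647 under 2-APB. RB1 was 1241 to 1763 in control, 1378 to 1673 under SKF-96365 and 1541 to 1789.7 under 2-APB. RBL2, the pocket protein of resting cells, had 576, 754 and 1024 in control, 762, 1061 and 1071 under SKF-96365 and 835, 911 and 596 under 2-APB, the reverse order. TFDP2 ran from 716 to 1120.0. The median log2 fold change of the list was -0.29 for SKF-96365 against control, 0.011 for 2-APB against control and 0.23 for 2-APB against SKF-96365.

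Of 15 kinase, inhibitor and turnover genes 13 were tested, and none passed limma. At an unadjusted p under 0.05 there was 1 of 13 in SKF-96365 against control (CDKN2C; 4.0% of all genes), none in 2-APB against control (2.80%) and 3 of 13 in 2-APB against SKF-96365 (CDKN2C, CDC25C and CDKN1A; 7.30%). The same 3 libraries were lowest for 7 of 13 genes (CDK2, CDK4, CDK6, CCNA2, CDKN2C, SKP2 and CDC25C), against 17.6% of all tested genes. The 3 libraries were highest for 4 of 13 (CDKN1A, CDKN1B, CDKN1C and CDC25B), against 16.4% of all tested genes. CDKN1A, which encodes the inhibitor p21, had 3984, 4592 and 8037 in control, 6236, 7898 and 7824 under SKF-96365 and 3740.3, 3878 and 4765 under 2-APB. Every 2-APB library was below every SKF-96365 library, as for 8.79% of genes, with a log2 fold change of -0.83 (limma adjusted p = 0.684). CDKN1B, which encodes p27, had 527, 538 and 875 in control, 479.6, 854 and 871 under SKF-96365 and 568, 556 and 460.5 under 2-APB. CDKN2C, an inhibitor of CDK4 and CDK6, was 484, 471 and 270.3 in control, 332, 225 and 191 under SKF-96365 and 387, 379 and 434 under 2-APB. CDK2 ran from 899.6 to 1832, CDK4 from 1429 to 2309 and CDK6 from 2137 to 2761. SKP2 and FBXW7, which mark p27 and cyclin E for destruction, ran from 1324 to 2317 and from 329.7 to 434.

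Of 20 E2F target genes of DNA replication and nucleotide supply, all 20 were tested and none passed limma. All 20 had control 3, SKF-96365 2 and SKF-96365 3 as the 3 lowest libraries, against 17.6% of all tested genes. The list was chosen with earlier results of these data known, and its genes share this library pattern. Its counts are therefore given as a description and are not separate pieces of support. CDC6, which loads the replicative helicase, had 2582, 1737 and 615 in control, 1349, 549 and 635 under SKF-96365 and 1309, 1387 and 2227 under 2-APB, a span of 4.70 times that lay close to that of CDC25A (4.97 times). PCNA, the sliding clamp of the polymerase, had 3746, 2974 and 1552 in control, 2419.7, 1466 and 1649 under SKF-96365 and 2611, 2555 and 3667 under 2-APB. Fold changes were below 0 for 20 of 20 in SKF-96365 against control (median -0.44), with 1 of 20 at an unadjusted p under 0.05 against 4.0% of all genes, and above 0 for 20 of 20 in 2-APB against SKF-96365 (median 0.61), with 10 of 20 at an unadjusted p under 0.05 against 7.30% of all genes. Of 12 genes of G2 and mitosis, 9 had the same 3 libraries lowest, against 17.6% of all tested genes. None of the 12 passed limma or reached an unadjusted p under 0.05. The median log2 range of these 12 genes was 0.88, against 1.14 for the E2F targets and 1.74 for the 10 genes. Over all tested genes the median was 0.86. The 10 genes were chosen partly by their counts in these libraries, so this order of ranges is a description.

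The genes most like the 10 were sought by the mean absolute difference of centred log2 profiles over the 9 libraries, among 12381 genes. Nearest to the mean profile of the 10 were NOP56 (0.051), a nucleolar protein of ribosome assembly, ASF1B (0.059), a histone chaperone, and WDR76 (0.062). TIPIN, a replication fork protein, was nearest to both E2F1 (0.081) and E2F2 (0.091), and FEN1, the flap endonuclease, was nearest to E2F8 (0.099). E2F3 lay nearest to GATAD2A (0.029), CCND3 to U2AF2 (0.044), a splicing factor, and CCND1 to SDF2L1 (0.052). CDC25A lay nearest to RGS2 (0.11), CCNE2 to FAM111B (0.16) and CCNE1 to TCF7 (0.18), so the E cyclins had the least close neighbours. The score is not scaled to a gene's own log2 range, which was widest for CCNE2 (3.10). TCF7 had a mean of 50.3, near the minimum of 50. E2F7 lay nearest to the pseudogene RPL4P4 (0.070). Within the 10 genes the closest pairs were E2F3 with CCND3 (0.078) and E2F1 with E2F2 (0.12), and the furthest was E2F7 with CCNE2 (1.05).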

How the data were processed

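Total RNA was turned into libraries with the SMARTer kit for mRNA, per the labels' protocols. The deposited values are a normalized signal: each library's gene counts were scaled by its own size factor by the authors, with DESeq2 per the submitters' processing notes, and the values bear this form. Aligner, counter, annotation, genome build and strand setting are not given in the sources used here. Of 60605 Ensembl identifiers, 60593 (99.98%) were matched to a symbol, 130 of them through GENCODE 29. The 488 unnamed loci held 0.205% to 0.275% of the signal. In every library all values were whole multiples of 1 step within 0.001 of a read. Whole reads were taken from 8 libraries. The step of SKF-96365 3 was near 1 (0.992), so its reads were not taken as recovered, although its values were whole multiples too. Reads carry no molecular identifier, so PCR copies count as reads and intervals hold for counting error alone.

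Genes that reached 10 in 3 or more of the 9 libraries were fitted with limma 3.58.1 (R 4.3.3) with an intensity trend on log2 of the value plus 1. The fit used all 9 libraries, 3 two-sided contrasts and an F test, with Benjamini-Hochberg adjustment over the 17492 genes and calls at an adjusted p under 0.05. edgeR 4.0.16 (quasi-likelihood) and DESeq2 1.42.0 were run on the recovered reads of 8 libraries. The fits were also run on simulated counts with the same spread setting for every gene and no libraries that cross their labels. That setting is unlike these data, so it does not show how the fits perform on them. Other pseudocounts, filters, scalings and left-out libraries were tried.

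The 10 genes and all lists were chosen with earlier results of these data known. Beside them, the text names other pathway genes by role, and the genes nearest in centred profile (mean of at least 50). Promoter windows are from RefSeq, GRCh38.p14. Exon lengths are GENCODE 29 exon unions.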

Additional observations from a re-analysis of the deposited data

How the results depend on the processing

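With all 9 libraries no gene passed limma in any comparison, and the pseudocounts, filters, scalings and the fit without an intensity trend called none either. With only the 2 groups compared, 4 genes were called in 2-APB against SKF-96365. edgeR on 8 libraries called 0 in every comparison. DESeq2 called 2 in SKF-96365 against control, 1 in 2-APB against SKF-96365 and 2 over the 3 groups. The labels do not say whether replicate numbers pair the samples. Deviations of same-numbered libraries correlated from -0.35 to 0.50, and those of differently numbered libraries from -0.57 to 0.48. These values do not settle whether the numbers pair the samples. With the replicate number as a block, 0 genes were called in each comparison, with 717, 431 and 1259 at an unadjusted p under 0.05 in SKF-96365 against control, 2-APB against control and 2-APB against SKF-96365, and 701 over the 3 groups.

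Leaving out 1 library gave 0 to 173 called genes in SKF-96365 against control, 0 to 0 in 2-APB against control, 0 to 4 in 2-APB against SKF-96365 and 0 to 4 over the 3 groups, the highest without control 3. The median of the 10 genes then ran from -0.88 to -0.12, from -0.14 to 0.41 and from 0.43 to 0.97 in these 3 comparisons. In SKF-96365 against control E2F7 ran from -0.060 to 0.18, E2F3 from -0.50 to -0.11, CCND1 from -0.71 to -0.083 and CCND3 from -0.56 to -0.23. In 2-APB against control E2F1 ran from -0.24 to 0.65, E2F2 from -0.027 to 0.86, E2F3 from -0.17 to 0.17 and E2F8 from -0.58 to 0.27. CCNE2 ran from -0.076 to 1.41, CCND1 from -0.48 to 0.11, CCND3 from -0.11 to 0.19 and CDC25A from -0.49 to 0.55. In 2-APB against SKF-96365 CCND1 ran from -0.094 to 0.59, E2F1 from 0.44 to 1.06, E2F2 from 0.86 to 1.37, CCNE1 from 0.73 to 1.16, CCNE2 from 1.24 to 2.07 and CDC25A from 0.53 to 1.43.

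Without control 3 and SKF-96365 1, limma called 4784 genes in SKF-96365 against control (median of the 10 genes -1.18), 2264 in 2-APB against SKF-96365 and 3522 over the 3 groups. In 2-APB against control E2F1 was then -0.24, E2F2 -0.027, E2F3 -0.17, CCNE2 -0.076, CCND3 -0.11 and CDC25A -0.49. With 2-APB 3 left out as well, the calls were 6506 (median -1.18), 1789 in 2-APB against control, 2571 and 5841. E2F1 was then -0.53, E2F2 -0.22, E2F3 -0.31, CCNE1 -0.063, CCNE2 -0.39, CCND3 -0.18 and CDC25A -0.85 in 2-APB against control, where E2F8 (-0.77), CCND1 (-0.77) and CDC25A were called lower. Under upper-quartile, equal-total and quantile scaling, E2F8 in 2-APB against control was 0.022, 0.030 and 0.032. On 8 libraries, CDC25A in that comparison was -0.025 in edgeR and -0.028 in DESeq2. CCND1 in 2-APB against SKF-96365, without SKF-96365 3, was -0.057 and -0.054. The fits with 1 to 3 libraries left out have fewer samples, and the cause of the other reversals was not tested. The libraries left out together were chosen by where their values lay.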
